A study of Mus musculus with 2 samples.

Results

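Irf8, Batf3, Clec9a, Cadm1, Tlr3, Wdfy4, Naaa and Ifi205 are 8 of the 28692 genes counted in these libraries. They were chosen by symbol as genes tied to type 1 conventional dendritic cells (cDC1) and to cross-presentation, and all 8 were found. CD45+ immune cells resident in adipose tissue, from C57BL/6 mice of genotype wt, set apart from blood cells by intravenous labelling, were profiled by droplet-based single-cell RNA sequencing (10x Genomics). The mice, adult per the labels, had eaten either chow or a ketogenic diet for 1 week, and each diet gave 1 library. With 1 library per diet, a difference between the diets and a difference between these libraries cannot be told apart. The labels do not give the number of mice behind a library. No p-value is given, and each 95% interval covers counting error only.

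The chow library held 4545 cells and 21570910 UMIs (barcoded transcript molecules), and the ketogenic library held 5614 cells and 26041785 UMIs. The authors' deposited clustering placed 10017 of the 10159 cells in 13 numbered, unnamed clusters. The libraries shared 41 cell barcodes, of which 4 chow and 3 ketogenic cells lay in cluster 6, and no doublet caller was run. Cluster 6 held 307 chow cells at a median depth of 7906 UMIs and 355 ketogenic cells at a median of 9922. Apart from the 8 genes, 9 of 10 cDC1 markers stood at least 2-fold higher there than in all other clustered cells, and Xcr1 and Ppt1 were among its 10 leading genes, so it is called cDC1-like. The clustering itself used expression, so the height of the 8 genes in cluster 6 describes that cluster and is no test of it.

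Conventional dendritic cells of type 1 take up material from dead cells and show its antigens on MHC class I to CD8 T cells, which is called cross-presentation. Irf8 and Batf3 are the transcription factors on which their development rests. Clec9a senses exposed actin filaments of dead cells, Tlr3 senses double-stranded RNA in endosomes, Cadm1 is an adhesion molecule, and Wdfy4 is required for cross-presentation of cell-associated antigen. Naaa is a lysosomal hydrolase of fatty acid ethanolamides such as palmitoylethanolamide, and Ifi205 belongs to the interferon-inducible Ifi200 family.

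The stretches just before the RefSeq start sites are shown for 3 of the genes, Irf8 as the most widely detected, Clec9a as a largely cluster 6 gene, and Ifi205 for a motif match (build GRCm38.p6, all written 5′ to 3′ on the strand of the gene). They end at the start site or at the first annotated exon base of the gene. The Irf8 stretch is chr8:120736108-120736357 on the plus strand, the Clec9a stretch chr6:129408612-129408861 on the plus strand, and the Ifi205 stretch chr1:174031811-174032005 on the minus strand. Capitals mark each CG in Irf8 and Clec9a, and the motif match in Ifi205.
Irf8: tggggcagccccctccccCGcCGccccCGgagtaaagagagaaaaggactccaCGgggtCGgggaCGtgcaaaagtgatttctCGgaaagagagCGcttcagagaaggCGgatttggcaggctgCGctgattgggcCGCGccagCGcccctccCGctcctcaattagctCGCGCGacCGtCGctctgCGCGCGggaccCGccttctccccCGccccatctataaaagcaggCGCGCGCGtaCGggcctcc
Clec9a: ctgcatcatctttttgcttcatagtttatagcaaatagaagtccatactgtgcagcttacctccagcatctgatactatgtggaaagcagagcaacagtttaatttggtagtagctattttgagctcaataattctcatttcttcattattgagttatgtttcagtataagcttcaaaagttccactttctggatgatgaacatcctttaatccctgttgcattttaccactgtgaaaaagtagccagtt
Ifi205: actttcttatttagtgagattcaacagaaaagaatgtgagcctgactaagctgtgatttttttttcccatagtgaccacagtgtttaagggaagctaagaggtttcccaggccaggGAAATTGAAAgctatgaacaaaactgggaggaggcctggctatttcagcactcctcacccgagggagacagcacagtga
The Irf8 stretch held 29 CG dinucleotides and the Clec9a stretch 0. Over the full windows of 300 bases around the start, 250 before and 50 after, the counts were 38 for Irf8, 34 for Batf3, 12 for Naaa, 10 for Tlr3, 5 for Wdfy4, 1 for Clec9a and 1 for Ifi205, beside a median of 7 over 32851 mouse promoters. A second Irf8 start held 8. Among 5 motifs searched on both strands, the core of the interferon-stimulated response element (GAAA, any 2 bases, GAAA) occurred in Ifi205 at position -134 from the start and again at position 23, and 3.44% of all promoters hold it. TGANTCA (AP-1, in 7.81% of all promoters), the ETS-IRF composite (GGAA, any 2 bases, GAAA, in 2.72%), the spaced AP-1-IRF composite (TTTC, any 4 bases, TGANTCA, in 0.119%) and the adjacent one (GAAA directly before TGANTCA, in 0.125%) were not found in the windows of the 7 genes with an entry. The AP-1-IRF composites contain TGANTCA, and the interferon and ETS-IRF motifs can share bases.

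Across the whole set, 7 of the 8 genes were at least 2-fold higher in cluster 6 than in all other clustered cells, on the scale of CPM (UMIs scaled to a total of 1000000) plus 20, where 1.56% of 10361 genes reached that fold. Naaa ranked 2 among all genes at 8.79-fold, Ifi205 ranked 3 at 8.51-fold and Cadm1 ranked 7 at 6.90-fold. Wdfy4 followed at 6.32-fold, Irf8 at 6.21-fold, Clec9a at 5.90-fold and Tlr3 at 4.63-fold. Batf3 was the exception, at 1.93-fold. Since these cells were clustered on their expression, the order is a description.

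**Figure D1:**
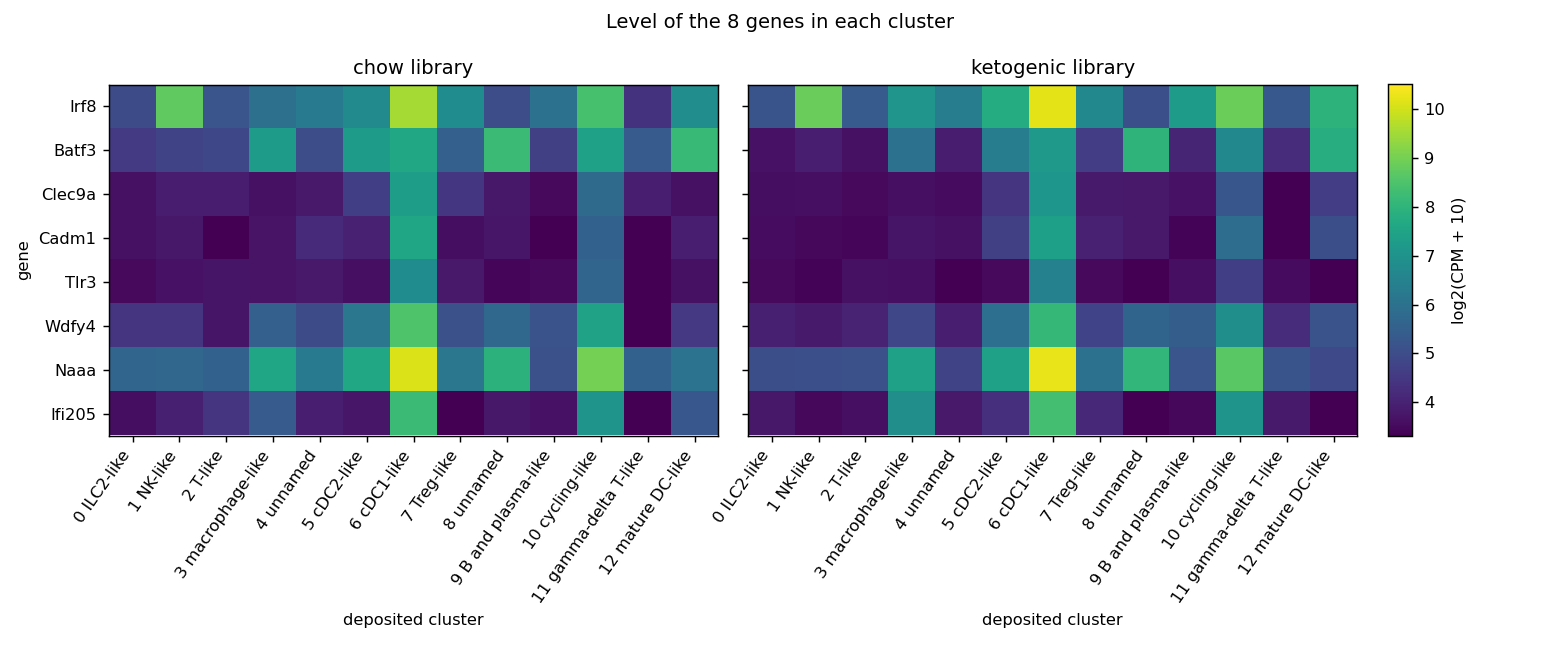
Level of each of the 8 genes (rows) in each deposited cluster (columns) as log2(CPM + 10), chow library on the left and ketogenic library on the right. Cluster 6 is the brightest column for every gene except Batf3, which was higher in clusters 8 and 12, and the NK-like cluster 1 stands out for Irf8.

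Between the diets, Irf8 in cluster 6 was higher in the ketogenic library and 5 other genes were lower by less than 1.5-fold. Irf8 was the 1 member of 8 past 1.5-fold higher, where 6.75% of 4354 genes with at least 100 UMIs were, and 0 of 8 were past 1.5-fold lower, where 4.2% were. The median log2 ratio of the 8 genes, ketogenic over chow, was -0.21, beside 0.07 over all 4354 genes, whose 5th and 95th percentiles were -0.55 and 0.65. With ratios centred on that median, the split over all genes turned from 294 higher and 183 lower to 197 higher and 258 lower, that is from 61.6% to 43.3% higher.

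**Figure D2:**
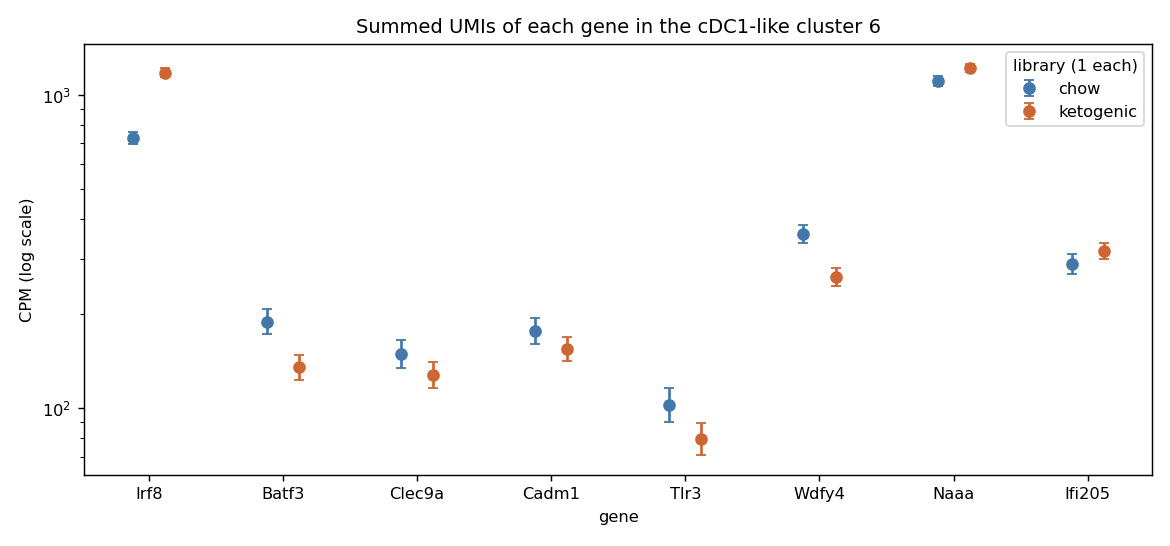
CPM of each gene in cluster 6 on a log axis, with chow and ketogenic as 1 point each and bars for the exact Poisson 95% interval. The intervals stand clear of each other for Irf8 and Naaa, higher under the ketogenic diet, and for Batf3, Tlr3 and Wdfy4, higher under chow.

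Irf8 (chr8:120736358-120756694, plus strand, GRCm38) gave 1774 UMIs or 727 CPM (694 to 762) in chow cluster 6 and 4097 UMIs or 1176 CPM (1141 to 1213) in ketogenic cluster 6. The log2 ratio was 0.69 (0.61 to 0.77), a ratio that 3.84% of the genes tested there reached or passed. The difference ran through the range of cells, since the lower quartile, median and upper quartile of Irf8 CPM per cell were 381, 628 and 953 in chow and 644, 1179 and 1634 in ketogenic cells. With each cell thinned to 1000 UMIs, 49.2% (43.5 to 54.9) of chow cells and 64.5% (59.3 to 69.5) of ketogenic cells carried an Irf8 UMI, against 96.1% and 98.6% unthinned. In cluster 0, called ILC2-like (group 2 innate lymphoid cells) and taken as a type that should lack the gene, the thinned shares were 1.99% and 2.29%, at median depths of 2610.5 and 3133 UMIs.

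Irf8 was not restricted to dendritic cells. The NK-like (natural killer cell) cluster 1 ranked 2 in chow at 416 CPM (387 to 447) and 3 in the ketogenic library at 456 (434 to 478), where its interval overlapped that of the cycling-like cluster 10. Cluster 6 held 47.0% (45.4 to 48.6) of chow Irf8 UMIs and 51.2% (50.1 to 52.3) of ketogenic ones, or 30.1% and 32.9% with each cell thinned to 1000 UMIs. The gene had 100 UMIs or more over both libraries in 11 clusters, and its ketogenic level was the higher in 10 of them. The Treg-like (regulatory T cell) cluster 7 was the exception at a log2 ratio of -0.16 (-0.63 to 0.34). Intervals also included 0 in cluster 0 (0.29, -0.19 to 0.80), cluster 2 (0.17, -0.55 to 1.05) and cluster 4 (0.04, -0.42 to 0.54). In cluster 4 the median over all genes was 0.07.

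Past 1.5-fold, Irf8 was higher in 5 of those 11 clusters. The share of all genes past 1.5-fold higher was 7.31% in cluster 0, 5.85% in cluster 1, 11.6% in cluster 2, 7.1% in cluster 4, 9.85% in cluster 7 and 12.5% in cluster 10, where Irf8 was not past 1.5-fold, and is given next for the clusters where it was. In the cDC2-like cluster 5 it was 96.1 CPM in chow and 208 CPM in ketogenic cells, a log2 ratio of 1.11 (0.89 to 1.35), where 6.34% of genes were past 1.5-fold higher and the 95th percentile was 0.63. These UMIs were unevenly spread there, since 49 of 344 chow and 81 of 358 ketogenic cells carried any, and the variance of the count was 9.60 and 15.6 times its mean. Cluster 5 was named from cDC2 markers, of which 4 of 9 were raised and 4 were among its 10 leading genes, but 5 of 8 markers of plasmacytoid dendritic cells were raised there as well, with 0 among the leading genes. The part of such cells in the Irf8 level was not tested. In the macrophage-like cluster 3 it was 53.2 CPM and 123 CPM, a log2 ratio of 1.22 (0.88 to 1.54), with a background of 9.39%. Raised in cluster 3 were 8 of 10 macrophage markers and 6 of 7 monocyte markers, with 2 and 1 among its leading genes. The part of monocytes in the levels of cluster 3 was not tested. In the mature DC-like cluster 12 it was 105 CPM and 237 CPM on 41 and 82 UMIs, a log2 ratio of 1.16 (0.61 to 1.75), with a background of 8.35%. In the B and plasma-like cluster 9 it was 53.8 CPM and 145 CPM, a log2 ratio of 1.42 (0.94 to 1.96). Of the genes there 42.8% were past 1.5-fold higher, with a median of 0.50 and a 95th percentile of 1.37. In NK-like cells, where the gene is abundant, the log2 ratio was 0.13 (0.01 to 0.26).

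Batf3 (chr1:191097847-191108945, plus strand) gave 460 UMIs or 189 CPM (172 to 207) in chow cluster 6 and 470 UMIs or 135 CPM (123 to 148) in ketogenic cluster 6. The log2 ratio was -0.48 (-0.67 to -0.29), and 93.2% of the genes tested stood at or above it. In cells of cluster 6 below the median depth of 8822 UMIs the ratio was -0.25, and in the deeper cells -0.60. Cluster 6 ranked 3 for this gene in both libraries, though in chow its interval overlapped that of cluster 10 (141 to 184). Cluster 8, an unnamed cluster led by Retnla, Fcrls and Lyz1, ranked 1 at 286 and 246 CPM, with mature DC-like cluster 12 next at 277 and 214 CPM, and the intervals of clusters 8 and 12 overlapped in each library.

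Batf3 was the lower in the ketogenic library in all 6 clusters where it had 100 UMIs, and past 1.5-fold lower in 3. In the clusters 8 and 12, where it was not, 14.3% and 7.97% of genes were past 1.5-fold lower. The macrophage-like cluster 3 gave 145 CPM in chow and 54.9 CPM in ketogenic cells, a log2 ratio of -1.38 (-1.85 to -0.98), where 8.87% of genes were past 1.5-fold lower and the 5th percentile was -0.77. In cDC2-like cells the level was 144 CPM and 70.9 CPM, a log2 ratio of -1.02 (-1.29 to -0.76), with a background of 5.19%. In the cycling-like cluster 10 it was 162 CPM and 91.6 CPM, a log2 ratio of -0.82 (-1.13 to -0.51), with a background of 8.42%. T cell transcripts went the opposite way to Batf3 there. A UMI of Cd3e, Cd3d, Cd3g or Trac was found in 42.3% of chow and 69.5% of ketogenic cells of cluster 10, or 17.0% and 42.8% when thinned to 1000 UMIs. In cluster 5 the thinned shares were 5.92% and 12.3%. The part of these cells in the lower Batf3 levels was not tested. Batf3 thus ran opposite to Irf8 in clusters 6, 5, 3 and 10, and in each of them the interval of either gene excluded 0. In cluster 10 the Irf8 log2 ratio was 0.49 (0.32 to 0.66). Cluster 10 cells with an Xcr1 UMI gave 0.82 for Irf8 and -0.01 for Batf3, and those without gave 0.04 and -1.55. In neither part did both intervals exclude 0. Cluster 6 held 16.4% (15.0 to 17.8) of chow Batf3 UMIs and 43.4% (40.4 to 46.4) of ketogenic ones, while the cells of cluster 3 numbered 859 and 145 and those of cluster 8 numbered 362 and 47. With clusters weighted equally, the Batf3 shares were 14.5% and 16.9%.

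**Figure D3:**
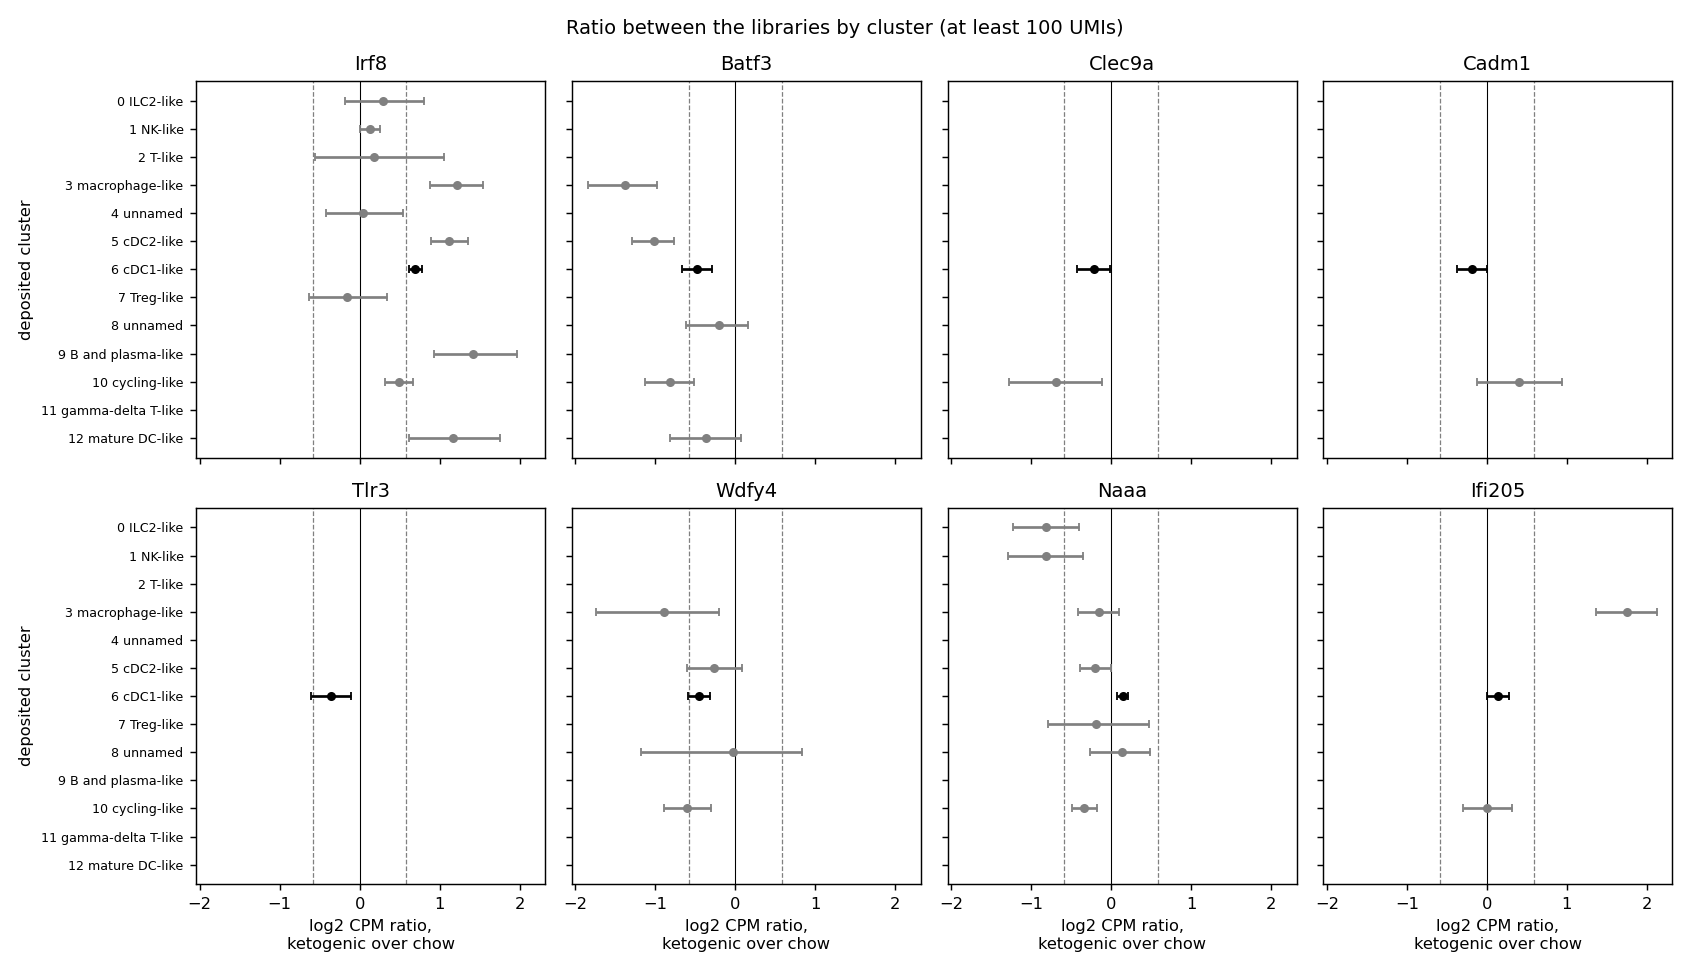
Log2 CPM ratio, ketogenic over chow, of each gene in every cluster where it had at least 100 UMIs over both libraries, with exact conditional 95% intervals, black for cluster 6 and dashed lines at 1.5-fold. Irf8 points lie mostly to the right of 0, the Batf3 and Wdfy4 points lie to the left, with Wdfy4 in cluster 8 close to 0 at -0.03, and the Ifi205 point in cluster 3 is at 1.75.

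By share of UMIs, Clec9a, Cadm1 and Tlr3 were the genes most restricted to cluster 6, with 2 exceptions among the alternatives. With clusters weighted equally chow Ifi205 (61.8%) stood above chow Clec9a (60.3%), and with cells thinned to 1000 UMIs ketogenic Ifi205 (72.5%) was level with Clec9a (72.2%) and Cadm1 (72.8%). Clec9a (chr6:129408862-129424763, plus strand), the receptor for dead cells, gave 363 UMIs or 149 CPM (134 to 165) in chow cluster 6 and 445 UMIs or 128 CPM (116 to 140) in ketogenic cluster 6. The log2 ratio of -0.22 (-0.42 to -0.02) left little room between its upper bound and 0. Cluster 6 held 70.8% (66.6 to 74.7) and 78.8% (75.2 to 82.1) of all Clec9a UMIs. The next cluster was cycling-like cluster 10, at 45.7 and 28.2 CPM, a log2 ratio of -0.69 (-1.28 to -0.12) that is past 1.5-fold lower, as 8.42% of genes were there. The thinned share of cluster 10 cells with a CD3 or Trac UMI was 17.0% in chow and 42.8% in ketogenic cells, and its part in this ratio was not tested. The cDC2-like cluster 5 gave 15.0 and 11.6 CPM. Thinned to 1000 UMIs, 14.0% (10.3 to 18.4) and 11.8% (8.66 to 15.7) of cluster 6 cells carried the gene, against 63.5% and 66.5% unthinned, and the thinned share in ILC2-like cells was 0.351% and 0.229%. An annotated Clec1b transcript covers the Clec9a start on the same strand, so reads there cannot be told apart between them.

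Cadm1 (chr9:47530173-47857637, plus strand), the adhesion molecule, gave 430 UMIs or 176 CPM (160 to 194) in chow cluster 6 and 538 UMIs or 154 CPM (142 to 168) in ketogenic cluster 6, a log2 ratio of -0.19 (-0.38 to -0.00). That difference is at the edge of counting error, and it was 0.016 over all clustered cells with an Xcr1 UMI. Within cluster 6 it was -0.47 in cells below the median depth and -0.20 in the deeper cells. Without cells holding at least 3 macrophage marker UMIs, Cd68 included, it was -0.32. Cluster 6 held 79.5% (75.8 to 82.8) and 77.0% (73.7 to 80.0) of Cadm1 UMIs. The next cluster was cycling-like cluster 10 at 37.0 and 48.9 CPM, a log2 ratio of 0.40 (-0.12 to 0.94), opposite in sign to cluster 6 and with an interval that included 0. In cluster 10 cells with an Xcr1 UMI the Cadm1 ratio was 0.61 (0.02 to 1.23). In the mature DC-like cluster 12 the gene was down to 5.13 and 23.1 CPM, on 2 and 8 UMIs. Its thinned share of cluster 6 cells was 15.3% and 13.8% (63.2% and 68.5% unthinned), against 0.234% and 0.153% in ILC2-like cells.

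Tlr3 (chr8:45395665-45411080, minus strand), the endosomal RNA sensor, gave 250 UMIs or 102 CPM (90.2 to 116) in chow cluster 6 and 278 UMIs or 79.8 CPM (70.7 to 89.8) in ketogenic cluster 6. The log2 ratio was -0.36 (-0.61 to -0.11), and in the cells of cluster 6 below the median depth of 8822 UMIs it was -0.016, against -0.59 in the deeper cells. Cluster 6 held 72.5% (67.4 to 77.1) and 84.2% (79.9 to 88.0) of Tlr3 UMIs, with cycling-like cluster 10 next at 40.6 and 15.1 CPM, beside the same rise in cells with a CD3 or Trac UMI. Clusters other than 6 and 10 gave at most 4.01 CPM in either library. In cDC2-like cells there were 5 and 4 Tlr3 UMIs, and in ketogenic mature DC-like cells 0, which allows up to 8.67 CPM. The thinned share of cluster 6 cells was 9.45% and 7.61% (51.1% and 47.6% unthinned), against 0.117% and 0.153% in ILC2-like cells.

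Wdfy4 (chr14:32959547-33185508, minus strand), the cross-presentation factor, gave 877 UMIs or 360 CPM (336 to 384) in chow cluster 6 and 914 UMIs or 262 CPM (246 to 280) in ketogenic cluster 6. The log2 ratio was -0.45 (-0.59 to -0.32), and 92.3% of tested genes stood at or above it. The median Wdfy4 CPM per cell was 342 in chow and 232 in ketogenic cells. The Wdfy4 ratio was below 0 in the 5 clusters with 100 UMIs, with intervals that included 0 in clusters 5 and 8, and past 1.5-fold in macrophage-like cells (36.2 and 19.0 CPM, log2 ratio -0.89, -1.74 to -0.21, background 8.87%) and in cycling-like cells (165 and 109 CPM, log2 ratio -0.60, -0.90 to -0.31, background 8.42%). In the latter the thinned share of cells with a CD3 or Trac UMI went from 17.0% to 42.8%, and its part in the Wdfy4 ratio was not tested. Cluster 10 cells with an Xcr1 UMI gave a Wdfy4 ratio of -0.26 (-0.66 to 0.13), not past 1.5-fold. Those without gave -1.01 (-1.47 to -0.57). In cluster 8 the ratio was -0.03 (-1.19 to 0.84) on 10 ketogenic UMIs. In cDC2-like cells the levels of 62.6 and 52.1 CPM gave -0.26 (-0.61 to 0.08). Cluster 6 held 53.2% (50.7 to 55.6) and 64.2% (61.7 to 66.7) of Wdfy4 UMIs, and with clusters weighted equally the order turned, to 48.2% in chow and 45.0% in ketogenic cells. The thinned share of its cells was 29.97% and 22.3% (88.6% and 86.8% unthinned), against 1.17% and 0.458% in ILC2-like cells.

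Naaa (chr5:92257659-92278170, minus strand), the ethanolamide hydrolase, gave 2691 UMIs or 1103 CPM (1062 to 1146) in chow cluster 6 and 4247 UMIs or 1219.5 CPM (1183 to 1257) in ketogenic cluster 6. The log2 ratio of 0.14 (0.07 to 0.21) excluded 0 for counting error and 40.8% of genes stood at or above it. The ratio was 0.071 when centred on the median of all genes. In cells of cluster 6 below the median depth it was 0.035, and in the deeper cells 0.13. In other clusters Naaa leaned the other way, since 6 of the 8 clusters with 100 UMIs had the lower level in the ketogenic library, among them the Treg-like cluster 7, where 5.32% of genes were past 1.5-fold lower and Naaa stood at -0.19. It was past 1.5-fold lower in ILC2-like cells (40.8 and 23.2 CPM, log2 ratio -0.82, background 5.29%) and in NK-like cells (41.7 and 23.6 CPM, log2 ratio -0.82, background 5.14%). In those clusters the thinned share of cells with a Naaa UMI was between 2.06% and 3.63%, against 64.2% and 66.8% in cluster 6 (99.3% and 98.3% unthinned), and how far free RNA carried those low levels was not tested. Naaa was also detected in cluster 8 at 237 and 258 CPM, in cDC2-like cells at 187 and 163 CPM and in macrophage-like cells at 180 and 162 CPM. Cluster 6 held 47.0% (45.7 to 48.3) of chow Naaa UMIs and 71.0% (69.8 to 72.1) of ketogenic ones.

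Ifi205 (chr1:174011998-174031810, minus strand), the Ifi200 family member, gave 703 UMIs or 288 CPM (267 to 310) in chow cluster 6 and 1102 UMIs or 316 CPM (298 to 336) in ketogenic cluster 6, a log2 ratio of 0.13 (-0.00 to 0.27). In the cells below the median depth of the cluster the Ifi205 ratio was -0.14. Of the 3 clusters with 100 UMIs, the widest gap lay outside the dendritic cells. In the macrophage-like cluster 3 Ifi205 was 31.7 CPM (27.0 to 37.0) in chow and 106 CPM (86.1 to 130) in ketogenic cells, a log2 ratio of 1.75 (1.37 to 2.12), where 9.39% of genes were past 1.5-fold higher. It came from 93 of 859 chow and 33 of 145 ketogenic cells, and 12.6% of the ketogenic UMIs were in a single cell. In mature DC-like cells all 11 chow UMIs came from 1 cell and the ketogenic count was 0. Cluster 6 held 64.6% (61.7 to 67.5) and 75.1% (72.8 to 77.3) of Ifi205 UMIs, and with clusters weighted equally the order turned, to 61.8% and 59.4%. The thinned share of its cells was 23.8% and 25.6% (81.1% and 85.9% unthinned), against 0.117% and 0.305% in ILC2-like cells. The Ifi205 count is uncertain, because 39.6% of the words of 50 bases in the last 500 bases of its transcripts also occur in Ifi211, named Mnda in the matrices, and 11.0% in Mndal.

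The 8 genes occurred together in single cells. Cells of cluster 6 carried a UMI of a median of 6 of the 8 genes in both libraries, 43 chow and 58 ketogenic cells carried all 8, and 0 carried none. At least 5 of the 8 were seen in 90.2% of chow and 87.9% of ketogenic cells of cluster 6, against 34.5% and 23.4% in cluster 10 and 0% (0 of 344) and 0.559% in cDC2-like cluster 5. At least 2 of the restricted genes Clec9a, Cadm1 and Tlr3 were seen in 61.6% and 64.5% of cluster 6 cells, in 22.5% and 14.3% of cluster 10 cells and in at most 2.04% of any other cluster. These counts are unthinned, and cluster 6 is among the deeper clusters. Thinned to 1000 UMIs, the mean number of the 8 genes per cell was 2.23 and 2.25 in cluster 6, 0.931 and 0.683 in cluster 10 and 0.441 and 0.383 in cluster 5.

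**Figure D4:**
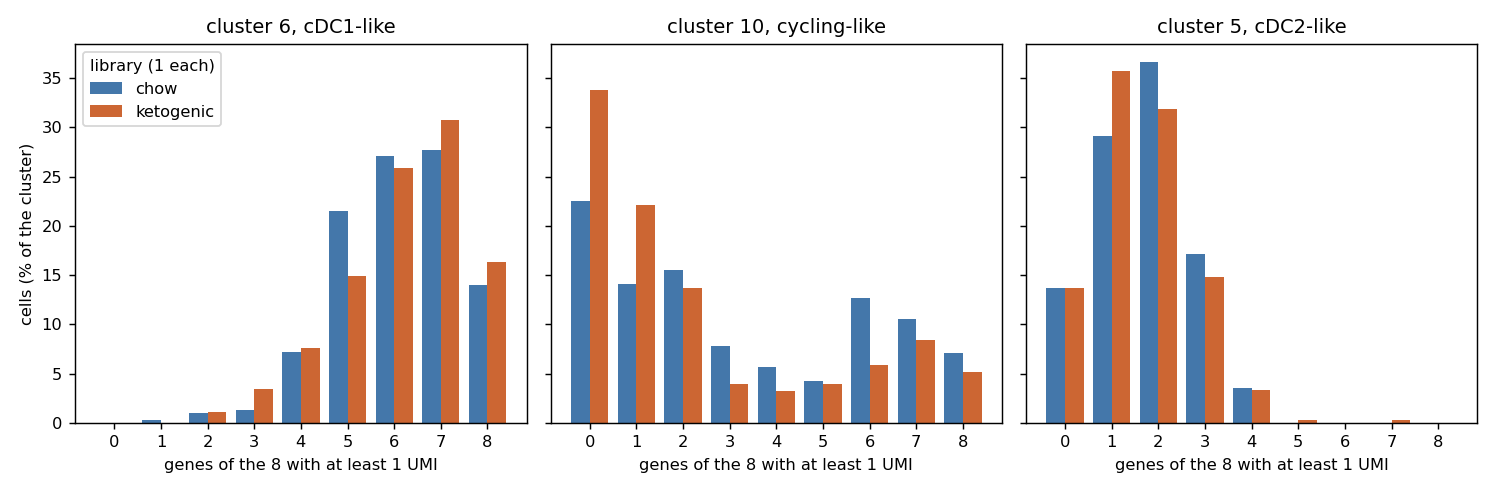
Percent of cells (vertical axis) by the number of the 8 genes with at least 1 UMI (horizontal axis) in clusters 6, 10 and 5, with 1 bar per library. Cluster 6 peaks at 7 genes in both libraries, and cluster 5 lies mostly at 3 or fewer. Cluster 10 peaks at 0, with a second, lower peak at 6 genes in chow and at 7 in ketogenic cells.

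Cells with an Xcr1 UMI, the chemokine receptor that marks cDC1, were then used as a gate that does not rest on the 8 genes. Of 244 such chow cells 70.5% lay in cluster 6, and of 311 ketogenic ones 81.4%, with 30 in cluster 10 in each library. In cluster 10 each of the 8 genes was higher in gated than in other cells. Clec9a was 108 CPM in gated and 22.8 CPM in other chow cells of cluster 10, and Naaa was 1030.5 and 311 CPM. In the ketogenic library Tlr3 was 51.7 CPM in gated and 1.71 CPM in other cells of cluster 10, on 22 and 2 UMIs, and Cadm1 was 157 and 9.41 CPM. Set beside gated cells of cluster 6, gated cells of cluster 10 were lower, with intervals apart, for chow Cadm1 (103 against 189 CPM) and for ketogenic Clec9a (77.6 against 130.4 CPM), Tlr3 (51.7 against 89.6 CPM) and Naaa (1086 against 1289 CPM). Ketogenic Batf3 was higher there (209 against 133 CPM), and in the other comparisons the intervals overlapped.

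In cluster 10 the libraries were compared with and without the gate. Irf8 was 637 CPM in gated chow cells and 1128 CPM in gated ketogenic cells, a log2 ratio of 0.82 (0.60 to 1.06), while in ungated cells it was 220.3 and 226 CPM, a log2 ratio of 0.04 (-0.23 to 0.30). Batf3 showed the reverse, with 210.4 and 209 CPM in gated cells (log2 ratio -0.01, -0.46 to 0.45) and 144 and 48.8 CPM in ungated cells (-1.55, -2.03 to -1.11). Naaa was 1030.5 and 1086 CPM in gated cells (0.08, -0.12 to 0.27) and 311 and 149 CPM in ungated cells (-1.06, -1.34 to -0.79). Wdfy4 was at -0.26 (-0.66 to 0.13) in gated and -1.01 (-1.47 to -0.57) in ungated cells. Ifi205 was at 0.35 (-0.02 to 0.73) in gated and -0.79 (-1.40 to -0.21) in ungated cells. Cadm1 was at 0.61 (0.02 to 1.23) in gated cells, and ungated cells held 13 chow and 11 ketogenic UMIs of it. Over all cells of cluster 10, gated or not, the thinned share with a CD3 or Trac UMI was 17.0% in chow and 42.8% in ketogenic cells, and its part in the ungated ratios was not tested. Within cluster 6, Irf8 stood with the gate at 0.67 (0.57 to 0.77) and without it at 0.71 (0.57 to 0.85). Tlr3 in cluster 6 was at -0.27 (-0.57 to 0.03) with the gate and at -0.95 (-1.52 to -0.42) without it, on 97 chow and 41 ketogenic UMIs. The median depth of gated cells in cluster 10 was 12150.5 UMIs in chow and 15161.5 in ketogenic cells, above the 9251.5 and 9097.5 of the others.

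**Figure D5:**
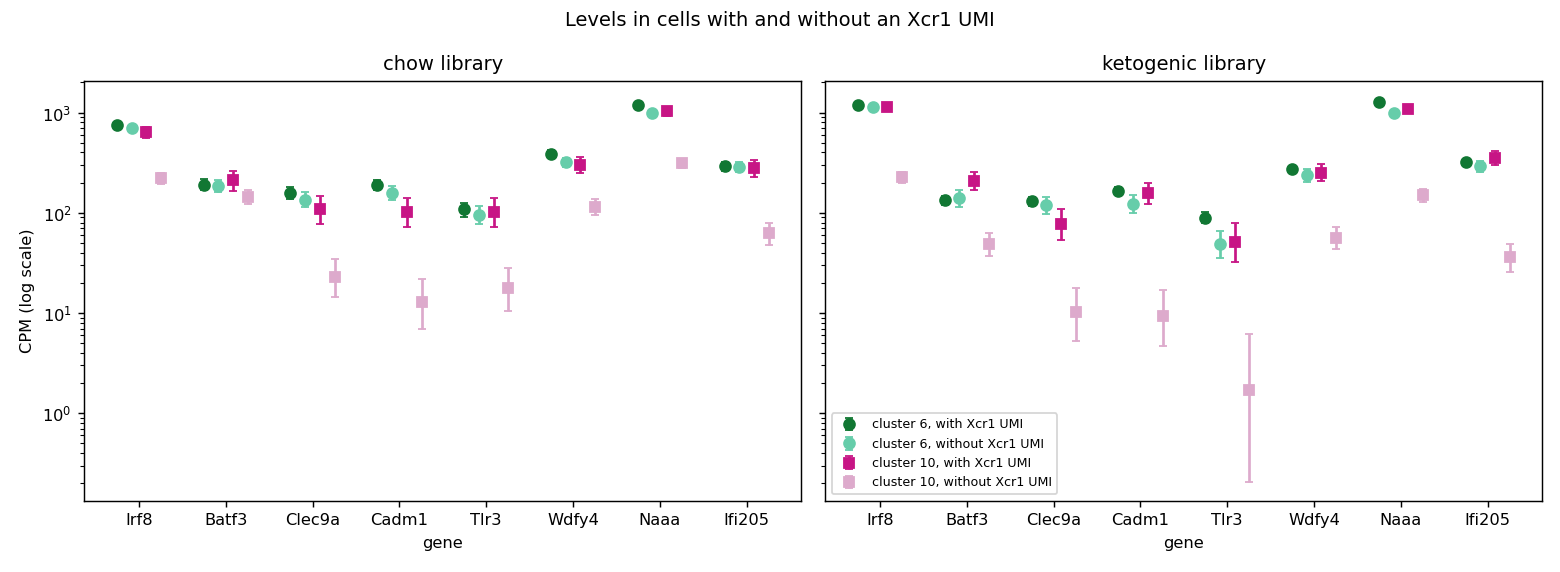
CPM of each gene on a log axis in cells with and without an Xcr1 UMI, in clusters 6 and 10, with exact Poisson 95% intervals, chow on the left and ketogenic on the right. Ungated cells of cluster 10 are the lowest of the 4 for every gene, and gated cells of cluster 10 lie below gated cells of cluster 6, with intervals apart, for Cadm1 in chow and for Clec9a, Tlr3 and Naaa in the ketogenic library.

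Over the 26 values of 13 clusters in 2 libraries, Clec9a, Cadm1 and Tlr3 varied together, with Pearson r of 0.96 for Clec9a and Cadm1, 0.94 for Clec9a and Tlr3, and 0.90 for Cadm1 and Tlr3 on log2(CPM + 10). Irf8 and Batf3 were the least alike pair at 0.27. These values share the libraries, their depth and the clustering. The 3 genes most like Irf8 were Fndc4 (0.79), Cd9 (0.77) and Psmb9 (0.76), and those most like Batf3 were Nav1 (0.95), Marcks (0.94) and Rps27l (0.94). Clec9a was close to Sept3 (0.96) and Cadm1 (0.96), and Cadm1 to A530099J19Rik (0.96), Sept3 (0.96) and Clec9a. Tlr3 was closest to Xcr1 (0.97), Gcsam (0.96) and Fzd1 (0.95). Wdfy4 was closest to 2310040G24Rik (0.93), Sept3 (0.92) and Pak1 (0.91), and Naaa to 2310040G24Rik (0.96), St3gal5 (0.94) and Mctp1 (0.93). Ifi205 was closest to Met (0.91), Dynlt1a (0.91) and Mnda (0.89), the last being the gene with which it shares sequence.

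Other genes around these 8 were read in cluster 6 against the same background of 6.75% higher and 4.2% lower. Of 18 other cDC1 genes 13 had 100 UMIs, of which 3 were past 1.5-fold higher and 0 lower, with a median log2 ratio of 0.32. The integrin Itgae was highest at 0.74, from 23.8 to 39.9 CPM, followed by the toll-like receptor Tlr11 at 0.65 and by Snx22 at 0.64. Centred on the median ratio of all genes, an alternative added after seeing the data, Itgae (0.67) stayed past 1.5-fold, and Tlr11 (0.58) and Snx22 (0.56) did not. Cd36 (-0.38) and Cd24a (-0.18) were lowest. Xcr1, the gate gene, was 131 CPM in chow and 170 CPM in ketogenic cells, a log2 ratio of 0.37 (0.17 to 0.57).

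Of 12 transcription factors of the cDC1 program 10 had enough UMIs, with 0 higher, 1 lower and a median of 0.19. The repressor Bcl6 was the lower one, from 41.0 CPM in chow to 17.5 CPM in ketogenic cells, a log2 ratio of -1.22 (-1.71 to -0.75). Jun (0.47) and Nfil3 (0.39) were highest, and Ikzf1 (-0.30) was the next lowest. Of 8 regulators of other dendritic cells, transcription factors and the receptor Notch2, 5 had enough UMIs, none stood above 0, and the median was -0.50. Rbpj (200 and 117 CPM, -0.77) and Notch2 (247 and 152 CPM, -0.70), both of the Notch pathway, were past 1.5-fold lower, and Relb (-0.02) and Klf4 (-0.23) were highest.

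Of 27 genes of the cross-presentation machinery 23 had enough UMIs, with 0 higher, 1 lower and a median of 0.10. The kinase Syk was lower, at 32.8 and 18.4 CPM with a log2 ratio of -0.83 (-1.33 to -0.34), followed by Sec61b (-0.20), a subunit of the translocon. Snap23 (0.46) and Tapbpl (0.43) were highest. Of 12 genes of Tlr3 signalling 5 had enough UMIs, with 1 higher, 0 lower and a median of -0.05. Tlr11, a receptor of its own that is also among the 18 cDC1 genes above, was the higher one, and after centring 0 of the 5 were past 1.5-fold. The chaperone Unc93b1, which carries Tlr3 to endosomes, followed at 0.46 (299 and 412 CPM), with Ripk1 (-0.28) and Irf3 (-0.26) lowest. In acylethanolamide metabolism 1 of 6 genes had enough UMIs, Asah1 at 0.48, and among 6 Cadm1 partners and nectin-like genes Pvr alone did, at -0.04. Of 13 relatives of Ifi205 listed, 11 were matched and 6 had enough UMIs, with 0 past 1.5-fold, a median of -0.05, Ifi211 (0.06) and Ifi203 (0.01) highest, and Ifi207 (-0.36) and Aim2 (-0.08) lowest.

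Markers of some other cell types in cluster 6 also differed between the libraries, while others were nearly level. All 8 CD4 T cell markers were detected in both, with a summed level of 49.2 CPM in chow and 164 CPM in ketogenic cells, and the 8 CD8 T cell markers summed to 69.3 and 214 CPM. Both lists hold Cd3e, Cd3d, Cd3g, Cd5 and Trac, so these sums overlap. Cd8a, in the CD8 T cell list, is also among the other cDC1 genes read above. The 8 ILC2 markers summed to 75.4 and 152 CPM, the 7 Treg markers to 69.7 and 141 CPM, and the 8 NK markers to 84.9 and 87.3 CPM. The 10 macrophage markers summed to 291 and 231 CPM, with Mertk at 0 in ketogenic cells. Cd68 alone gave 155 and 168 CPM of these sums, and the other 9 markers were each lower in the ketogenic library and summed to 136 and 63.7 CPM. A UMI of Cd3e, Cd3d, Cd3g or Trac was found in 70 of 307 chow and 151 of 355 ketogenic cells of cluster 6, or 3.63% and 9.41% when thinned to 1000 UMIs. Without those cells the Irf8 log2 ratio was 0.79 in place of 0.69, that of Batf3 was -0.37 in place of -0.48, and that of Tlr3 was -0.21 in place of -0.36. Cd68 gave 378 of the 710 macrophage marker UMIs in chow and 584 of the 806 in ketogenic cells of cluster 6. Without cells holding at least 3 macrophage marker UMIs, Cd68 included, the Irf8 ratio was 0.68. That choice kept 181 of 307 chow and 232 of 355 ketogenic cells, and how many of the cells left out were macrophages was not tested. Clec9a was then at -0.37 in place of -0.22 and Cadm1 at -0.32 in place of -0.19. All 8 ratios moved by less than counting error under that choice. The 10 cDC1 markers other than the 8 genes summed to 1841 CPM in chow and 1963 CPM in ketogenic cells. Monocyte markers summed to more, 2195 and 2283 CPM, of which Lyz2 alone gave 1605 and 1680 CPM. Sums were 436 and 460 CPM for B cell, 210 and 198 CPM for plasma cell, and 198 and 198 CPM for cycling markers. For cDC2 markers they were 337 and 278 CPM, and for mature DC markers 312 and 418 CPM.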

How the data were processed

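UMI counts per gene and cell were deposited by the authors as raw, unnormalised counts, per the file headers, with a table of t-SNE coordinates (not used) and cluster numbers at a resolution of 0.5. Cell Ranger, Seurat and the build mm10 are named, with no role or version, in the submitters' processing notes. How cells were called and filtered is not given in the sources used here.

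Counts were summed per cluster and library and divided by the summed total (CPM), with exact Poisson 95% intervals. A ratio between libraries was given where a gene had at least 100 UMIs over both, with 0.5 added to each count and an exact conditional interval, and called at 1.5-fold; with 1 library per diet no test was run. Shares have exact binomial (Clopper-Pearson) intervals and were thinned to 1000 UMIs per cell by the hypergeometric expectation. A count of 0 allows up to 3 counts. Clusters were named from marker lists without the 8 genes (at least 3 markers 2-fold raised on CPM plus 20, at least 1 among the 10 leading genes, and no other class with more among them); how ties were settled was decided after seeing the data. Named genes are the 8, the 3 most alike to each, and from each gene list the 2 highest and 2 lowest ratios and those past 1.5-fold, with relatives of Ifi205 and the gate gene Xcr1; 1 of the most alike genes is not reported here. The 8 genes and the lists were chosen with earlier results of these data known. The ratio and thinning steps were tested on simulated data. Positions are from GENCODE M21 (GRCm38), which held 28416 (99.0%) of the gene IDs, and promoters from RefSeq (GRCm38.p6), which matched 7 of the 8 genes. Irf8 lies within the annotated read-through gene Gm20388. Python 3.11.15, numpy 2.4.6, scipy 1.17.1 and pandas 2.3.3 were used. Alternatives covered the UMI minimum, the count added, the total, thinning, free RNA, the cells included and centring.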

Additional observations from a re-analysis of the deposited data

Results flagged for a closer look

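The 142 cells that the deposited clustering leaves out still held Irf8. In the 55 ketogenic cells without a cluster Irf8 stood at 456 CPM (361 to 567) on 80 UMIs, and in the 87 chow cells without a cluster at 310.4 CPM (242 to 393) on 69 UMIs. It drew attention because these cells enter no comparison and the ketogenic level exceeds the chow one; the intervals overlap. Of the other genes, the unclustered chow cells held Naaa at 261 CPM (58 UMIs), Wdfy4 at 139 CPM (31 UMIs), Ifi205 at 81.0 CPM (18 UMIs), Batf3 at 63.0 CPM (14 UMIs), and 5 UMIs of Tlr3, 3 of Clec9a and 2 of Cadm1. The unclustered ketogenic cells held 8 UMIs of Naaa, 2 each of Wdfy4 and Batf3, 1 each of Clec9a, Cadm1 and Tlr3, and 0 of Ifi205.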

How the results depend on the processing

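No paired analysis was possible because each diet has 1 library and the labels carry no replicate numbers; for the same reason no replicate could be left out. Of 112 alternative values of the 8 ratios in cluster 6, 103 moved by less than counting error and kept their direction. The other 9 were Irf8 at 0.79 without cells holding a CD3 or Trac UMI; Cadm1 at 0.016 over all Xcr1 cells; Naaa at 0.071 after centring; and, in cells below the median depth, Batf3 at -0.25, Cadm1 at -0.47, Tlr3 at -0.016, Wdfy4 at -0.67, Naaa at 0.035 and Ifi205 at -0.14, where the cause was not tested. The CD3 or Trac, macrophage-marker and depth alternatives were chosen after seeing the data. The number of genes past 1.5-fold in cluster 6 was 961 at 50 UMIs and 203 at 200 UMIs, since the minimum sets how many genes are read. Of the 24 most alike genes, 15 were shared with log2(CPM + 1) and 10 without cluster 6. With cells thinned to 1000 UMIs, the share of UMIs in cluster 6 was in chow 30.1% for Irf8, 14.4% for Batf3, 65.7% for Clec9a, 49.0% for Wdfy4 and 42.6% for Naaa, and in ketogenic cells 32.9% for Irf8, 37.4% for Batf3, 72.2% for Clec9a, 72.8% for Cadm1, 77.2% for Tlr3, 55.6% for Wdfy4, 63.8% for Naaa and 72.5% for Ifi205. With clusters weighted equally it was in chow 35.6% for Irf8, 14.5% for Batf3, 60.3% for Clec9a, 73.8% for Cadm1, 64.7% for Tlr3, 48.2% for Wdfy4 and 44.9% for Naaa, and in ketogenic cells 37.6% for Irf8, 16.9% for Batf3, 63.3% for Clec9a, 60.0% for Cadm1, 76.4% for Tlr3, 45.0% for Wdfy4, 52.5% for Naaa and 59.4% for Ifi205. With 10% of UMIs taken off as free RNA it was in chow 50.9% for Irf8, 77.2% for Clec9a, 86.3% for Cadm1, 78.3% for Tlr3, 57.7% for Wdfy4, 50.9% for Naaa and 69.2% for Ifi205, and in ketogenic cells 55.3% for Irf8, 85.1% for Clec9a, 81.3% for Cadm1, 90.3% for Tlr3, 69.6% for Wdfy4, 77.2% for Naaa and 79.0% for Ifi205. Unthinned, the share of cluster 6 cells with a UMI was in chow 96.1% for Irf8, 67.4% for Batf3, 63.5% for Clec9a, 63.2% for Cadm1, 51.1% for Tlr3, 88.6% for Wdfy4, 99.3% for Naaa and 81.1% for Ifi205, and in ketogenic cells 98.6% for Irf8, 66.5% for Batf3, 66.5% for Clec9a, 68.5% for Cadm1, 47.6% for Tlr3, 86.8% for Wdfy4, 98.3% for Naaa and 85.9% for Ifi205. Thinned to 2000 UMIs it was in chow 71.9% for Irf8, 30.1% for Batf3, 25.8% for Clec9a, 27.5% for Cadm1, 18.0% for Tlr3, 50.7% for Wdfy4, 85.3% for Naaa and 40.8% for Ifi205, and in ketogenic cells 84.2% for Irf8, 23.7% for Batf3, 22.3% for Clec9a, 25.4% for Cadm1, 14.4% for Tlr3, 39.4% for Wdfy4, 86.8% for Naaa and 43.4% for Ifi205. Fewer UMIs per cell lower the share of cells with a UMI.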
